A study of Arabidopsis thaliana with 22 samples.

Results

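Acetylation of histone H3 was mapped in *Arabidopsis thaliana* by chromatin immunoprecipitation and sequencing (ChIP-seq), and the peaks described here were those that lay upstream of genes and outside gene bodies. A peak was counted as upstream when its summit, the position of highest coverage, lay inside no protein-coding gene span but within 2 kb before the start of at least 1 such gene, read by strand. Peaks in fixed windows around the 5 centromeres were left out. By this rule 2260 of 105488 peaks in 10 lists were upstream (2.14%, 95% Wilson interval 2.06 to 2.23%). The chromatin came from whole dark-grown seedlings at 3 days of age, either *ein2-5*, a loss-of-function allele of *EIN2* and the only mutant line sequenced, or Col-0, the wild-type accession. Seedlings of each genotype received 10 p.p.m. ethylene for 4 h or air. H3K14Ac and H3K23Ac (acetylated lysines 14 and 23) were profiled in both genotypes, and H3K9Ac (acetylated lysine 9) in Col-0 only. The 18 ChIP libraries comprised 1 library for each Col-0 H3K14Ac condition and 2 for every other condition, and each genotype and treatment had 1 IgG library as background control. Because the reads of replicate libraries were pooled before peaks were called, each condition has 1 list and no replicate error, and no test between conditions was made. All intervals are Wilson intervals and cover counting error only. The seedlings were used whole, so the lists do not say which cells carried a mark.

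Acetylation of lysines in the tail of histone H3 loosens the contact of nucleosomes with DNA and marks active genes, and in plants as in animals it is placed mainly on the nucleosomes just after the transcription start. In the ethylene pathway, receptors at the endoplasmic reticulum keep the kinase CTR1 active in air. With ethylene, the C-terminal part of EIN2 reaches the nucleus, where the transcription factors EIN3 and EIL1 act, and *ein2* mutants do not respond to the hormone. Sequence upstream of a gene is where transcription factors bind, and it can also hold other transcribed units, such as microRNA genes, small nucleolar RNA genes, long non-coding RNAs and pseudogenes.

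Sequences of 5 upstream summits, with 100 bases on either side, show what lay under these peaks. The regions upstream of *AT5G04885* and *AT1G11593* had an upstream peak in all 10 lists, those upstream of *AT5G14820* and *LOG5* had H3K14Ac and H3K23Ac peaks in Col-0 only with ethylene, and the last one lies upstream of *EBF2*, whose protein targets EIN3 for degradation. The *EBF2* sequence was added after its values were seen. All are on the plus strand of TAIR10, 5′ to 3′, with capitals for matches to any of the 6 motifs named further on.
AT5G04885, chr5:1422275-1422475: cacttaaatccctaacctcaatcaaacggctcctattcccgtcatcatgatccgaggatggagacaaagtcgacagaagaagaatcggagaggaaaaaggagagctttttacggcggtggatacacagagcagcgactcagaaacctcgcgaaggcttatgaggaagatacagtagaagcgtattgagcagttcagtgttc
AT1G11593, chr1:3896648-3896848: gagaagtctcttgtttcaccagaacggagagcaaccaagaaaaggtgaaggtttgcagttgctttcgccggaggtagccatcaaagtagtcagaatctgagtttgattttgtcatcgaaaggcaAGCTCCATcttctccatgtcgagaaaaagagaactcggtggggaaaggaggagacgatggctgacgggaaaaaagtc
AT5G14820, chr5:4795356-4795556: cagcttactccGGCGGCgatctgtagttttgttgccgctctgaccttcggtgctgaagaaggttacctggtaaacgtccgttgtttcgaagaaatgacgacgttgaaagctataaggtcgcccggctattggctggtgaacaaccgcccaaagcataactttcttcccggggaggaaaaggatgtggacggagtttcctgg
LOG5, chr4:16744339-16744539: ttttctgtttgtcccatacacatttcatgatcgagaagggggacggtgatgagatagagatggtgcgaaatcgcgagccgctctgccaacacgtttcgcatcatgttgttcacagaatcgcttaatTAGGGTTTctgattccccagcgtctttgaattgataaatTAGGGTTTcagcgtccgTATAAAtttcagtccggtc
EBF2, chr5:8798694-8798894: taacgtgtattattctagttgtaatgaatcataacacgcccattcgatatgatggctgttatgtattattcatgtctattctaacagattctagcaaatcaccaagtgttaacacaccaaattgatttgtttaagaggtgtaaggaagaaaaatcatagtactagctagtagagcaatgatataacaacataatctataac
The capitals of the *AT1G11593* window match ATGNANCT on the minus strand. This is a loose pattern for the EIN3 binding site, with N for any base, and binding was not tested. The summit lies inside a non-coding RNA gene, *AT1G11592*. In the *AT5G14820* window they are a GCC-box, the element that ethylene response factors bind, within the pseudogene *AT5G14830*. The *LOG5* window holds a pair of telo-boxes and the letters of a TATA-box, and the *AT5G04885* and *EBF2* windows held none of the 6 motifs. G+C content differed between them, at 47.3% for *AT5G04885* and *AT1G11593*, 52.2% for *AT5G14820*, 45.3% for *LOG5* and 31.3% for *EBF2*.

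Peaks were rare upstream of genes for the space they had. The territory that the rule allows covered 20.1 Mb, which is 22.8% of the genome outside the centromeric windows, and over the 10 lists it held 112 peaks per Mb. Gene bodies covered 57.7 Mb (65.5%) and held 91123 peaks, or 1579 per Mb. The remaining sequence, neither genic nor within 2 kb upstream, held 198 peaks per Mb. Fold enrichment over the local background ran over the members between 1.42 and 5.91, with a median of 2.01, and 2031 members (89.9%) had a deposited q under 0.05.

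In Col-0, every mark had more upstream peaks with ethylene than in air. H3K9Ac had 680 upstream peaks with ethylene (3.78% of the list, interval 3.51 to 4.07%) and 159 in air (1.48%, 1.26 to 1.72%). H3K14Ac had 202 with ethylene (1.32%, 1.15 to 1.51%) and 14 in air (0.465%, 0.277 to 0.779%). H3K23Ac had 365 with ethylene (2.82%, 2.55 to 3.12%) and 38 in air (0.758%, 0.553 to 1.04%). For none of the 3 marks did the intervals of the shares overlap between treatments. The ratio of upstream peaks, ethylene over air, was 4.28 for H3K9Ac, 14.4 for H3K14Ac and 9.61 for H3K23Ac, whereas the ratios for gene-body peaks were 1.59, 4.88 and 2.38 and those for all peaks 1.67, 5.09 and 2.58.

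In *ein2-5* the order was the other way round, with fewer upstream peaks with ethylene than in air. H3K14Ac had 71 upstream peaks with ethylene (0.895%, 0.710 to 1.13%) and 131 in air (1.40%, 1.18 to 1.66%). H3K23Ac had 264 with ethylene (2.42%, 2.15 to 2.73%) and 336 in air (2.75%, 2.48 to 3.06%). The H3K14Ac intervals did not overlap and the H3K23Ac intervals did. Ethylene over air, the ratios were 0.542 for H3K14Ac and 0.786 for H3K23Ac, with all-peaks ratios of 0.847 and 0.893. Between genotypes, *ein2-5* over Col-0, the ratio in air was 9.36 for H3K14Ac and 8.84 for H3K23Ac, with all-peaks ratios of 3.11 and 2.44. With ethylene it was 0.351 and 0.723 for these marks, with all-peaks ratios of 0.518 and 0.842. All peaks thus moved in the same direction as upstream peaks in each of these comparisons, by a smaller factor.

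The depth of the IgG control moved with these numbers. Peaks were called after the larger ChIP library was brought to the size of its control, which held 10479732 tags for Col-0 with ethylene, 2438541 for Col-0 in air, 4333059 for *ein2-5* with ethylene and 13683768 for *ein2-5* in air. In each of the 5 treatment pairs, the list with the deeper control had more upstream peaks. The 3 Col-0 lists of a treatment share 1 control, as do both *ein2-5* lists, so the comparisons are not independent of each other. All lists were therefore also reduced to a common control depth of 2438541 tags, with pileup and background at each summit scaled and a Poisson P no higher than 0.01 required. Peaks were not called anew and no sampling noise was added. The Col-0 air lists, already at this depth, kept all their peaks, while deeper lists lost their weaker ones. How far this favours the list with the shallower control was not tested.

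At the common depth, upstream peaks were more numerous with ethylene in all 5 pairs, the *ein2-5* pairs included, and so were all peaks. Col-0 H3K9Ac had 309 with ethylene and 159 in air, a ratio of 1.94. Col-0 H3K14Ac had 69 and 14 for the same treatments, a ratio of 4.93, and Col-0 H3K23Ac had 76 and 38, a ratio of 2.00. For *ein2-5* the ethylene and air numbers were 57 and 8 for H3K14Ac, a ratio of 7.13, and 202 and 32 for H3K23Ac, a ratio of 6.31. The all-peaks ratios were 1.33 for H3K9Ac, 2.30 for H3K14Ac and 1.17 for H3K23Ac in Col-0, and 2.88 for H3K14Ac and 2.74 for H3K23Ac in *ein2-5*. As shares of the list, upstream peaks were 1.29% (1.04 to 1.62%) with ethylene and 0.758% (0.553 to 1.04%) in air for Col-0 H3K23Ac. For the other 4 pairs the interval with ethylene was 1.93 to 2.41% against 1.26 to 1.72% in air for Col-0 H3K9Ac, 0.787 to 1.26% against 0.277 to 0.779% for Col-0 H3K14Ac, 0.685 to 1.15% against 0.181 to 0.704% for *ein2-5* H3K14Ac, and 1.95 to 2.56% against 0.685 to 1.36% for *ein2-5* H3K23Ac. The intervals overlapped for Col-0 H3K23Ac and *ein2-5* H3K14Ac and not for the other 3 pairs. The direction in *ein2-5* thus turned round, and so did 3 of the 4 genotype ratios, in upstream peaks and in all peaks alike. *ein2-5* over Col-0, these became 0.571 for H3K14Ac and 0.842 for H3K23Ac in air, and 0.826 and 2.66 with ethylene. The all-peaks genotype ratios became 0.743 and 0.661 in air, and 0.927 and 1.54 with ethylene. The match of the Col-0 air control to its IgG library is uncertain, and how far it bears on these ratios was not tested.

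**Figure D1:**
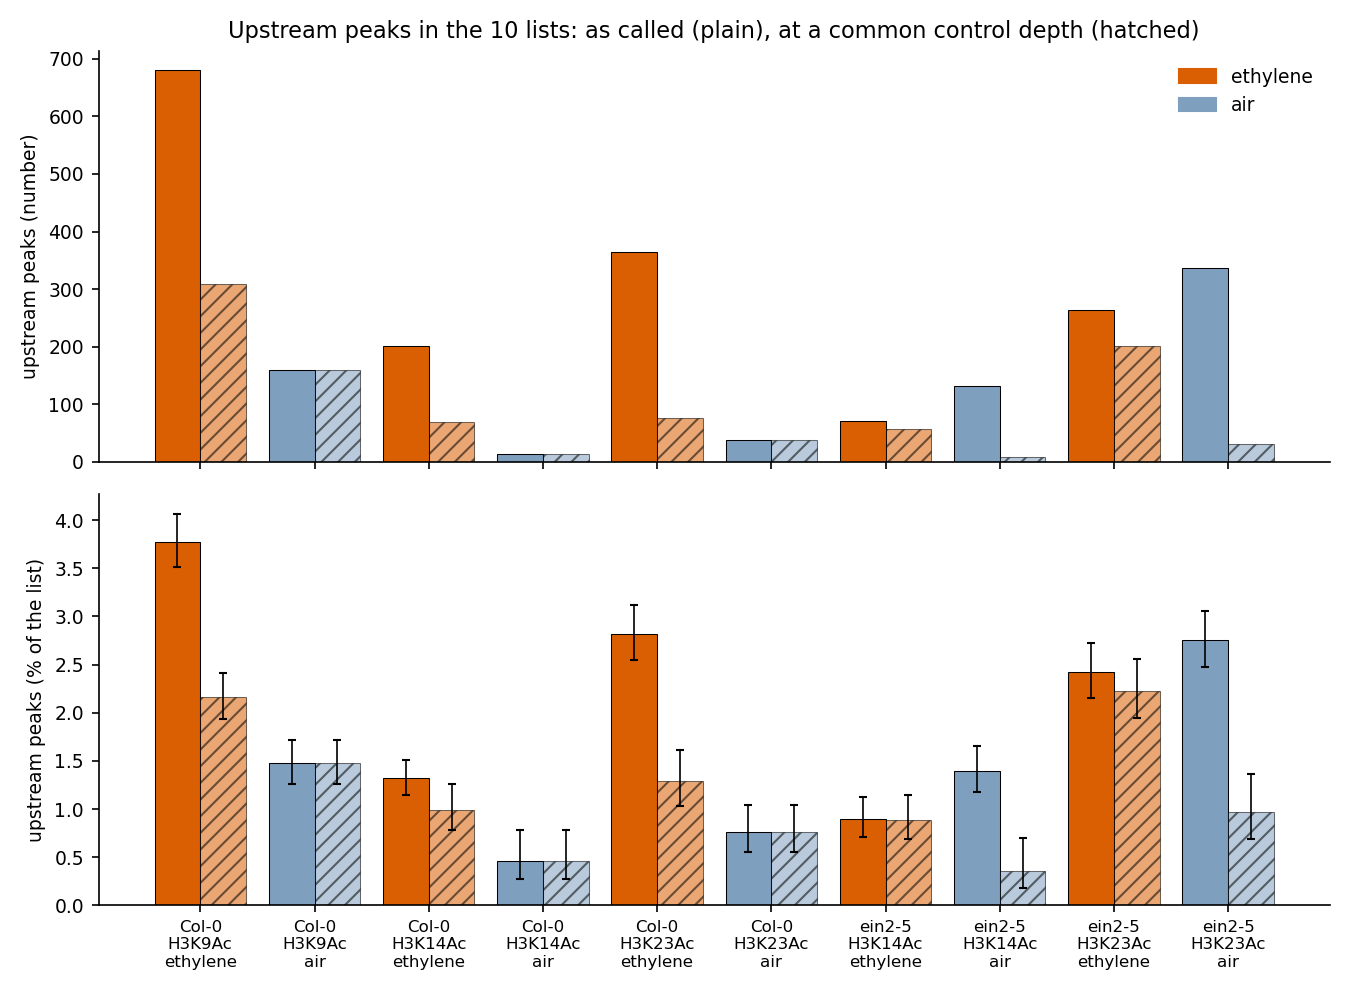
Number of upstream peaks in each of the 10 lists, as deposited and at the common control depth. With the lists as deposited, Col-0 H3K9Ac with ethylene has the most (680) and Col-0 H3K14Ac in air the fewest (14), and at the common depth ethylene lists exceed air lists in both genotypes.

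Among marks of the same genotype and treatment, H3K23Ac had more upstream peaks than H3K14Ac throughout. In Col-0 with ethylene, H3K14Ac had 202 and H3K23Ac 365, a ratio of 0.553, although H3K14Ac had more gene-body peaks (ratio 1.23). The H3K14Ac over H3K23Ac ratio of upstream peaks was 0.368 in Col-0 in air, 0.269 in *ein2-5* with ethylene and 0.390 in *ein2-5* in air, against gene-body ratios of 0.599, 0.752 and 0.794 for the same conditions. H3K9Ac had more than H3K23Ac in Col-0, with ratios of 1.86 with ethylene and 4.18 in air. At the common depth the 4 H3K14Ac ratios lay between 0.250 and 0.908, and the H3K9Ac ratios were 4.07 with ethylene and 4.18 in air.

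Upstream summits were sparse next to the gene and denser farther out. The median distance to the nearest downstream start was 844 bp (quartiles 449 and 1317 bp). Over all lists, the density was 41.9 peaks per Mb of territory within 200 bp of the start and 109 per Mb between 200 and 500 bp. It was 129 per Mb between 500 and 1000 bp, 137 per Mb between 1000 and 1500 bp and 160 per Mb between 1500 and 2000 bp. The rule counts only summits outside gene bodies, so a peak across a start with its summit in the gene is not among them. The median peak length was 300 bp, against 367 bp for gene-body peaks, and only 143 upstream peaks (6.33%) extended into the gene downstream of them.

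**Figure D2:**
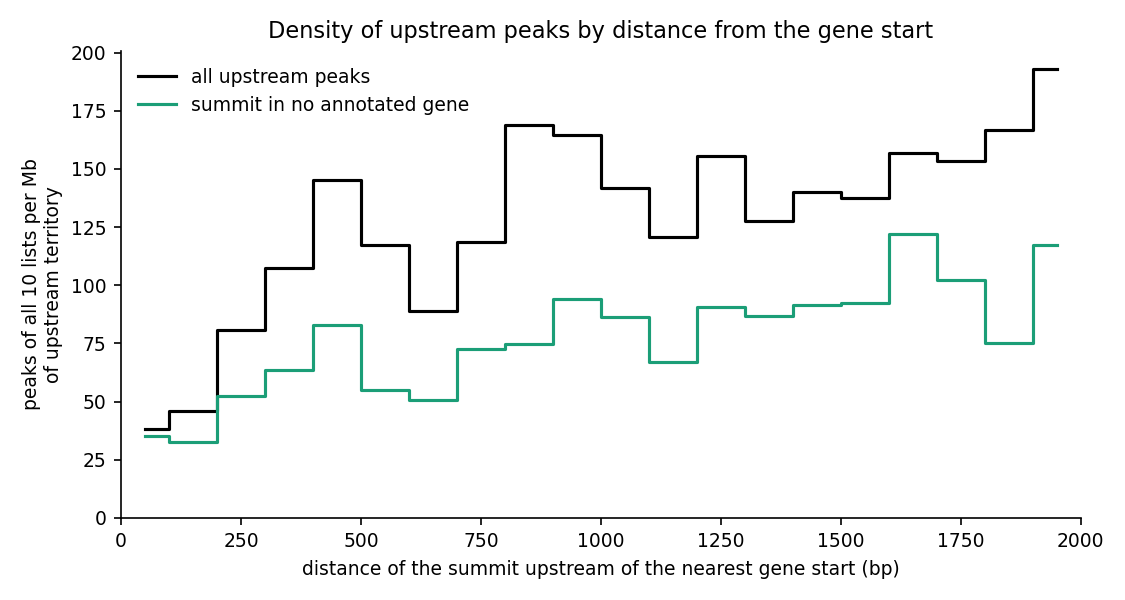
Upstream peaks per Mb of upstream territory against the distance in bp from summit to the nearest downstream start. The density over all 10 lists is lowest within 200 bp of the start (41.9 per Mb) and highest between 1500 and 2000 bp (160 per Mb).

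Upstream peaks were somewhat sparser in head-to-head promoters, with starts of 2 divergent genes within reach. These held 410 upstream peaks (18.1%) in 21.4% of the territory, or 95.2 per Mb, against 117 per Mb elsewhere in it. Distance to the start was not matched between these arrangements. For 1652 peaks (73.1%) the nearest gene edge was a start and not the end of a neighbouring gene. The rule itself selects sequence before starts, and the same share of the territory was not computed. By −log10 P, the median upstream peak ranked in the lower part of its list in 8 of 10 lists. The percentile was 17.9 in the Col-0 H3K9Ac ethylene list, 28.3 in Col-0 H3K23Ac with ethylene and 39.0 in Col-0 H3K14Ac with ethylene. In Col-0 H3K14Ac in air, the 14 upstream peaks had a median percentile of 76.4, and in Col-0 H3K9Ac in air it was 51.6.

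Many upstream peaks sat on other annotated genes. The summit lay inside a pseudogene or an RNA gene for 901 of the 2260 peaks (39.9%, 37.9 to 41.9%), although such genes took up only 6.13% of the territory. Small RNA genes (microRNA, small nucleolar and small nuclear RNA) held 2194 peaks per Mb and other RNA genes 1271 per Mb. Long non-coding RNA genes held 611 per Mb, pseudogenes 435 per Mb and sequence with no annotated gene 72.1 per Mb. Small RNA genes were thus above the gene-body density of 1579 per Mb given above, and the 3 other kinds lay between it and bare upstream sequence. Density counts summits per base, so short genes can reach a high value with few peaks. Small RNA genes covered only 0.0579 Mb, and gene length was not taken into account. By number, 127 peaks lay in small RNA genes, 285 in other RNA genes, 262 in long non-coding RNA genes and 227 in pseudogenes. These overlaps are of position only, and whether a mark belonged to the RNA gene or to the protein-coding gene downstream was not tested.

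The share of summits in such genes depended on list and rank. It was lowest in Col-0 H3K9Ac with ethylene, at 30.6% (27.2 to 34.2%), against 62.9% (55.2 to 70.0%) in air. For Col-0 H3K14Ac it was 54.95% (48.1 to 61.7%) with ethylene and 78.6% (52.4 to 92.4%) in air, and for Col-0 H3K23Ac 36.2% (31.4 to 41.2%) and 71.1% (55.2 to 83.0%). In *ein2-5* it was 66.2% (54.6 to 76.1%) with ethylene and 38.9% (31.0 to 47.5%) in air for H3K14Ac, and 41.3% (35.5 to 47.3%) and 31.3% (26.5 to 36.4%) for H3K23Ac. In each pair the list with the shallower control thus had the larger share. At the common depth the share was 58.0% over all lists, and between 46.5 and 78.6% in single lists. When the upstream peaks of each list were ranked by −log10 P and the lists pooled, it was 27.1% up to the 25th percentile. It was then 25.9% and 43.1%, and 63.3% (59.2 to 67.1%) above the 75th percentile. From the lowest to the highest of these classes it fell only in Col-0 H3K23Ac in air (88.9 to 70.0%) and *ein2-5* H3K14Ac with ethylene (76.5 to 61.1%).

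The kind of gene differed between marks. Pseudogenes held 22.3% (17.1 to 28.5%) of upstream H3K14Ac summits in Col-0 with ethylene and 28.6% (11.7 to 54.7%) in air, and 23.9% (15.5 to 35.0%) and 17.6% (11.99 to 25.0%) in *ein2-5*. For H3K23Ac they held 8.77% (6.28 to 12.1%) in Col-0 with ethylene and 23.7% (12.99 to 39.2%) in air, and 6.82% (4.36 to 10.5%) and 8.04% (5.58 to 11.4%) in *ein2-5*. For H3K9Ac the share was 5.44% (3.97 to 7.41%) with ethylene and 9.43% (5.80 to 15.0%) in air. H3K14Ac thus had the larger pseudogene share at each of the 4 conditions, with intervals that did not overlap those of H3K23Ac in Col-0 with ethylene and in both *ein2-5* conditions. Small RNA genes showed another order. For H3K9Ac they held 4.41% (3.11 to 6.23%) of summits with ethylene and 15.1% (10.4 to 21.5%) in air. For H3K23Ac they held 6.30% (4.24 to 9.28%) in Col-0 with ethylene, and 7.20% (4.66 to 11.0%) with ethylene and 5.36% (3.42 to 8.31%) in air in *ein2-5*. For H3K14Ac they held 3.96% (2.02 to 7.62%) in Col-0 with ethylene, and 5.63% (2.21 to 13.6%) with ethylene and 0.763% (0.135 to 4.20%) in air in *ein2-5*. No summit of the 14 H3K14Ac or 38 H3K23Ac upstream peaks in Col-0 in air lay in one, with upper Wilson bounds of 21.5% and 9.18%. H3K9Ac in air thus had the highest small RNA share of the 10 lists.

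**Figure D3:**
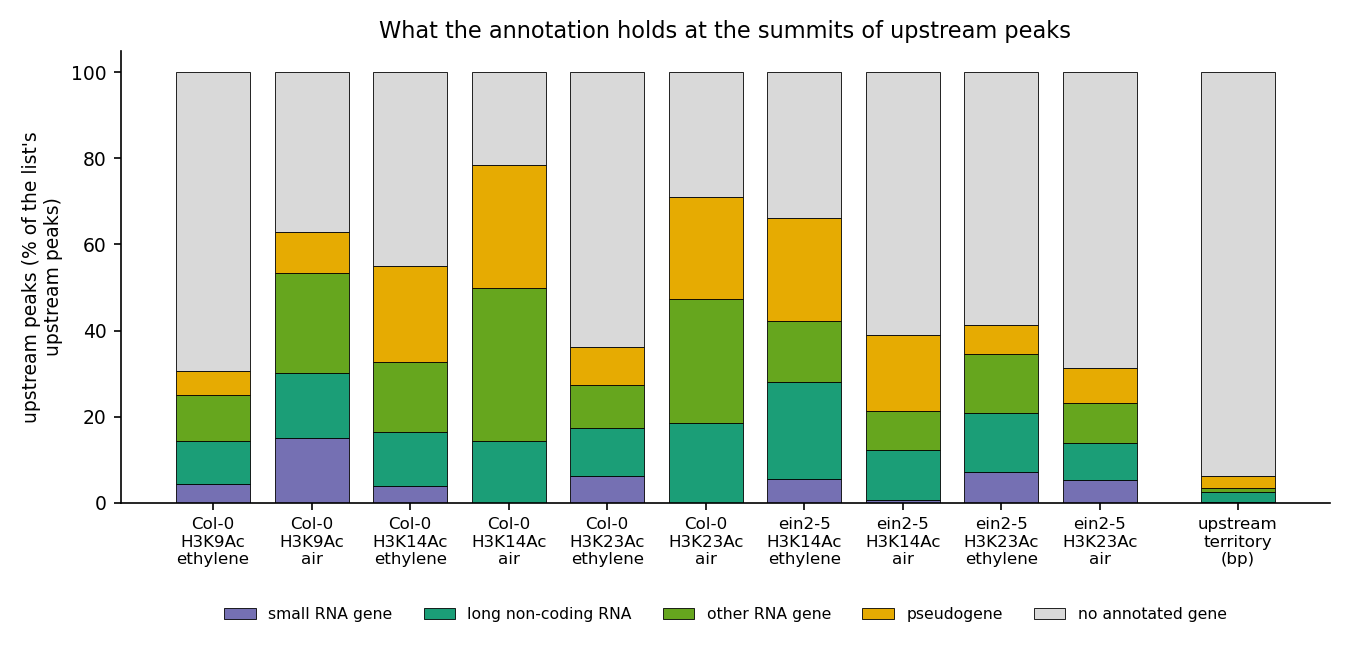
Share of upstream peaks in each list whose summit lies in a small RNA gene, a long non-coding RNA gene, another RNA gene, a pseudogene or no annotated gene, in percent. Sequence with no annotated gene takes the largest share in Col-0 H3K9Ac with ethylene (69.4%) and the smallest in Col-0 H3K14Ac in air (21.4%).

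Overlapping upstream peaks of the 10 lists merged into 1149 regions. Of these, 716 (62.3%) had a peak in 1 list alone, 100 in at least 5 lists and 8 in all 10. Col-0 H3K9Ac with ethylene supplied 349 of the single-list regions, *ein2-5* H3K23Ac in air 114, and Col-0 H3K14Ac in air none. The regions found in many lists were mostly those on other genes. A region counted as such when any of its summits lay in another gene, so regions of more lists had more chances. How much of the rise came from this was not tested. A summit in another gene was found for 17.0% (14.5 to 19.97%) of regions of 1 list and 16.5% (11.9 to 22.5%) of regions of 2 lists. For 3 or 4 lists this was 56.6% (48.4 to 64.4%), for 5 to 7 lists 73.7% (62.8 to 82.3%), and for 8 to 10 lists 75% (55.1 to 88.0%).

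MicroRNA genes lay at 1 or more summits of 11 regions, several of them for microRNAs that act on the small RNA machinery itself. A list was counted at a region if it had an upstream peak anywhere in it, also with the summit outside the microRNA gene. Over all lists, 30 upstream summits lay inside a microRNA gene. The region at *MIR403*, whose microRNA targets *AGO2*, had a peak in 7 lists, which were the 4 Col-0 lists of H3K9Ac and H3K23Ac, both *ein2-5* H3K23Ac lists and Col-0 H3K14Ac with ethylene. Regions at *MIR168a*, which targets *AGO1*, and at *MIR159a*, which targets GAMYB-like transcription factors, had peaks in 5 lists each, which were both Col-0 H3K9Ac lists, both *ein2-5* H3K23Ac lists and Col-0 H3K23Ac with ethylene. *MIR159b*, *MIR162a* (which targets *DCL1*), *MIR173* and *MIR865* had 4 lists each, *MIR162b*, *MIR166b* and *MIR8176* 3 each and *MIR861* 1. By mark, H3K9Ac covered all 11 regions with ethylene and 9 in air, and H3K23Ac covered 9 and 1 in Col-0 and 6 and 5 in *ein2-5*, again with ethylene and in air. H3K14Ac covered 2 with ethylene and none in air in Col-0, and none in either *ein2-5* list. Over all 1149 regions, H3K9Ac covered 59.1% with ethylene and 13.8% in air, and H3K23Ac 31.3 and 3.22% in Col-0 and 22.8 and 28.8% in *ein2-5*. H3K14Ac covered 17.1 and 1.22% of all regions in Col-0 and 6.01 and 11.3% in *ein2-5*. The H3K9Ac air list, with fewer regions than the Col-0 H3K14Ac ethylene list, thus had a peak in more of the microRNA regions. The regions were drawn from summits of these same lists, so their counts by list are a description only. The −log10 P at *MIR168a* was 32.6 for H3K9Ac and 9.03 for H3K23Ac in Col-0 with ethylene, 5.72 for H3K9Ac in Col-0 in air, and 2.58 with ethylene and 6.99 in air for H3K23Ac in *ein2-5*. At *MIR159a* it was 41.5 and 10.9 for these marks in Col-0 with ethylene, 3.88 for H3K9Ac in air, and 6.19 with ethylene and 7.47 in air for H3K23Ac in *ein2-5*. These values depend on control depth, so they rank a peak within its own list only. In their own lists the *MIR159a* and *MIR168a* peaks of Col-0 H3K9Ac with ethylene stood at the 99.4 and 98.7 percentile of the upstream peaks.

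Small nucleolar RNA genes, whose products guide chemical modification of ribosomal RNA, lay at 1 or more summits of 35 regions. Lists were counted as for the microRNA regions, and 97 upstream summits lay inside a small nucleolar RNA gene. H3K9Ac peaks covered 34 of the 35 regions with ethylene and 28 in air. H3K23Ac peaks covered 20 with ethylene and none in air in Col-0, and 27 with ethylene and 24 in air in *ein2-5*. For H3K14Ac the numbers were 8 with ethylene and none in air in Col-0, and 4 and 1 in *ein2-5*. Only the region at *AT3G21805*, upstream of *UGT71B8*, had peaks in 8 lists, and 25 of the 35 had peaks in at least 4. As a share of the 35, H3K9Ac covered 97.1% (85.5 to 99.5%) with ethylene and 80% (64.1 to 90.0%) in air, both above its shares of all regions given for the microRNA genes. The H3K23Ac shares were 57.1% (40.9 to 72.0%) in Col-0 with ethylene, and 77.1% (60.98 to 87.9%) with ethylene and 68.6% (52.0 to 81.4%) in air in *ein2-5*, also above its shares of all regions. The H3K14Ac intervals included its shares of all regions, with 22.9% (12.1 to 39.0%) in Col-0 with ethylene and 11.4% (4.54 to 26.0%) in *ein2-5* with ethylene, and with 2.86% (0.506 to 14.5%) in *ein2-5* in air. In Col-0 in air neither H3K14Ac nor H3K23Ac had any of these regions. The 35 regions were drawn from summits of the same lists that are counted here, so these shares are a description and no test.

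The next comparisons asked which upstream peaks of 1 list overlapped, by at least 1 bp, no peak of another. In 30 of 32 such comparisons the unshared percentage was higher for upstream peaks than for gene-body peaks of the same list, and in 23 the whole interval lay above the gene-body value. These numbers were 27 and 16 of the 32 at the common depth. In the 30 comparisons with a single other list, the partner of a shared upstream peak was also an upstream peak in 2018 of 2129 cases (94.8%). The percentage over all peaks of the list, which is mostly gene-body peaks, is given as the background.

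Between treatments in Col-0, most upstream ethylene peaks had no air counterpart. This held for 517 of 680 H3K9Ac peaks (76.0%, 72.7 to 79.1%), against 40.0% of gene-body peaks and a background of 42.7%. For H3K14Ac it held for 186 of 202 (92.1%, 87.5 to 95.1%), against 81.1% of gene-body peaks and a background of 81.8%. For H3K23Ac it held for 332 of 365 (91.0%, 87.6 to 93.5%), against 63.9% and a background of 66.7%. The reverse was rare. Only 1 of 159 upstream H3K9Ac air peaks had no ethylene peak (0.629%, background 0.204%), as did 0 of 14 for H3K14Ac (interval up to 21.5%, background 5.81%) and 6 of 38 for H3K23Ac (15.8%, background 11.7%). Once reduced to the common depth, unshared air peaks were 13 of 159 for H3K9Ac (8.18%, 4.84 to 13.5%, all peaks 3.86%), 2 of 14 for H3K14Ac (14.3%, 4.01 to 39.9%, all peaks 25.1%) and 13 of 38 for H3K23Ac (34.2%, 21.2 to 50.1%, all peaks 37.8%).

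In *ein2-5*, upstream peaks of the deposited lists were unshared in both directions. With ethylene, 38 of 71 H3K14Ac peaks (53.5%, 42.0 to 64.6%, background 33.5%) and 136 of 264 H3K23Ac peaks (51.5%, 45.5 to 57.5%, background 25.5%) overlapped no air peak. In air, 97 of 131 H3K14Ac peaks (74.0%, 65.9 to 80.8%, background 43.7%) and 213 of 336 H3K23Ac peaks (63.4%, 58.1 to 68.4%, background 33.7%) overlapped no ethylene peak. All 4 intervals lay wholly above their backgrounds. With lists reduced to the common depth, the ethylene percentages were 91.2% (81.1 to 96.2%, all peaks 74.7%) for H3K14Ac and 85.1% (79.6 to 89.4%, all peaks 70.4%) for H3K23Ac. The air percentages were then 3 of 8 for H3K14Ac (37.5%, 13.7 to 69.4%, all peaks 27.6%) and 4 of 32 for H3K23Ac (12.5%, 4.97 to 28.1%, all peaks 20.6%). The pattern in both directions was thus not kept, and the air intervals included the values over all peaks.

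Among strong peaks the unshared percentages were lower than in the whole lists, for upstream and gene-body peaks alike. Among peaks with a −log10 P of 5 or more, 59.6% (54.7 to 64.4%) of upstream Col-0 H3K9Ac ethylene peaks had no air peak, against 32.5% of gene-body peaks. For H3K14Ac these values were 83.7% (74.8 to 89.9%) against 71.7%, and for H3K23Ac 76.7% (68.3 to 83.3%) against 51.7%. A difference thus remained among Col-0 peaks above this bound, but strength was not matched within the class. For H3K14Ac the gap was no smaller than in the whole lists, where the values were 92.1% against 81.1%. For H3K9Ac with ethylene, the median −log10 P of the whole list was 5.39 for upstream and 12.6 for gene-body peaks. In *ein2-5*, strong upstream ethylene peaks had no air peak in 25.0% (11.2 to 46.9%) of 20 cases for H3K14Ac and 20% (11.6 to 32.4%) of 55 for H3K23Ac, and both intervals included the gene-body values of 19.6 and 13.2%. Strong upstream *ein2-5* air peaks had no ethylene peak in 47.8% (34.1 to 61.9%) of 46 cases for H3K14Ac, against 27.7% of gene-body peaks, and in 36.4% (27.6 to 46.2%) of 99 for H3K23Ac, against 19.5%. The unshared ethylene percentages in Col-0 at the common depth were 51.5% for H3K9Ac, 79.7% for H3K14Ac and 67.1% for H3K23Ac, with values over all peaks of 30.7, 68.4 and 48.8%.

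**Figure D4:**
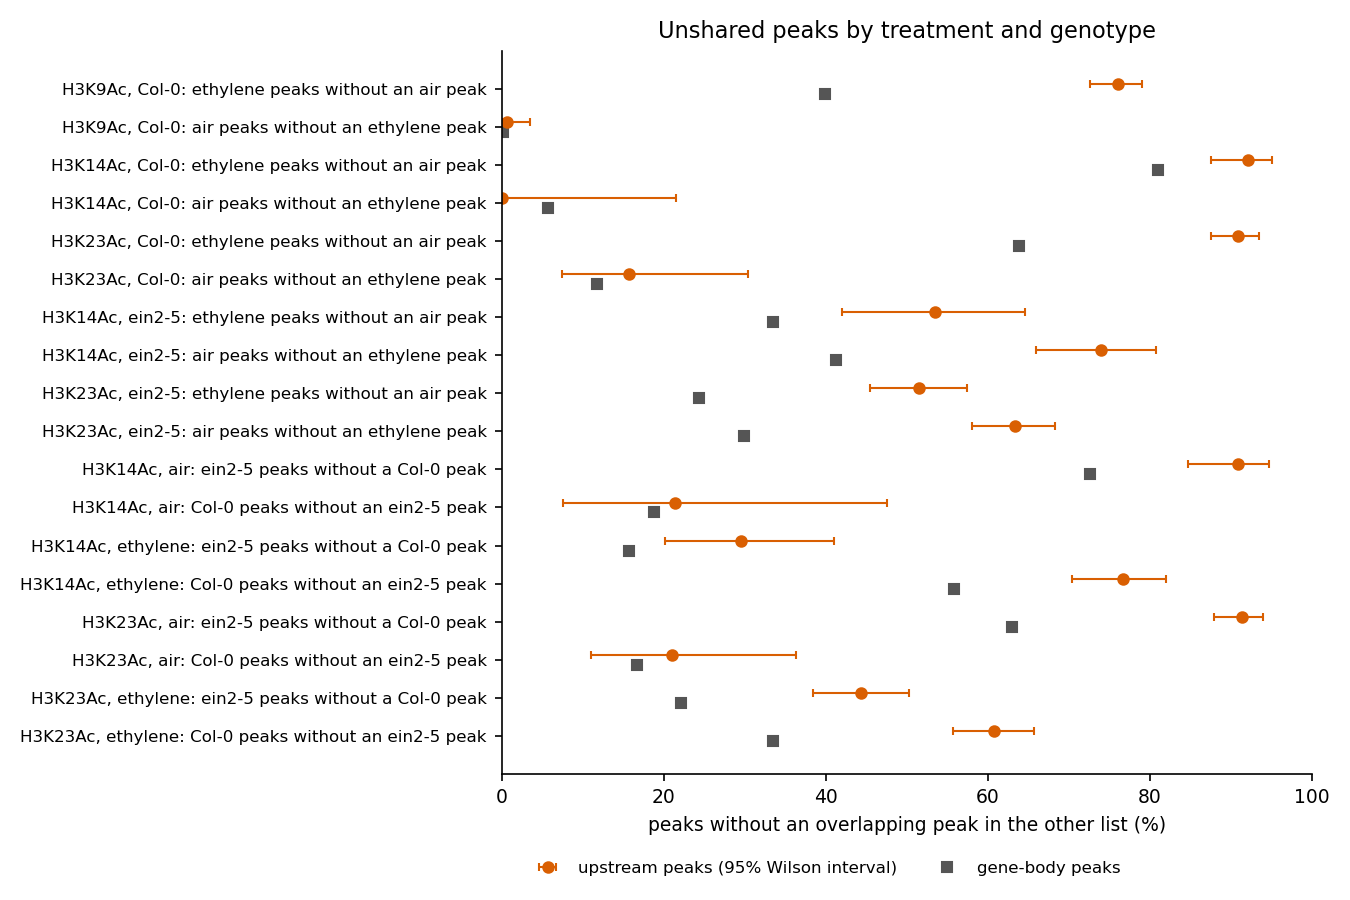
Percentage of upstream peaks (with 95% Wilson intervals) and of gene-body peaks that overlap no peak of the list they are compared with. For Col-0 H3K9Ac ethylene peaks against air, upstream peaks stand at 76.0% and gene-body peaks at 40.0%.

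Between genotypes, the direction depended on treatment in the deposited lists. In air, 119 of 131 upstream *ein2-5* H3K14Ac peaks (90.8%, 84.7 to 94.7%, background 74.2%) and 307 of 336 H3K23Ac peaks (91.4%, 87.9 to 93.9%, background 66.5%) overlapped no Col-0 peak. Conversely, 3 of 14 Col-0 H3K14Ac peaks (21.4%, background 19.1%) and 8 of 38 H3K23Ac peaks (21.1%, background 16.8%) overlapped no *ein2-5* peak, close to their backgrounds. With ethylene, 21 of 71 *ein2-5* H3K14Ac peaks (29.6%, 20.2 to 41.0%, background 16%) and 117 of 264 H3K23Ac peaks (44.3%, 38.4 to 50.4%, background 23.3%) overlapped no Col-0 peak. For Col-0 this was 155 of 202 for H3K14Ac (76.7%, 70.4 to 82.0%, background 56.9%) and 222 of 365 for H3K23Ac (60.8%, 55.7 to 65.7%, background 36.0%). In both treatments the genotype with the deeper control had more unshared peaks. These values changed at the common depth. In air, 7 of 8 *ein2-5* (87.5%) and 12 of 14 Col-0 H3K14Ac peaks (85.7%) were unshared, with values over all peaks of 51.2 and 62.8%. For H3K23Ac in air this was 17 of 32 in *ein2-5* (53.1%, 36.5 to 69.1%) and 23 of 38 in Col-0 (60.5%, 44.7 to 74.4%), against 40.4 and 58.9% of all peaks. With ethylene, 43.9% (31.8 to 56.7%) of *ein2-5* and 52.2% (40.6 to 63.5%) of Col-0 H3K14Ac peaks were unshared, against 39.0 and 44.1% of all peaks. For H3K23Ac with ethylene it was 73.8% (67.3 to 79.3%) in *ein2-5* and 30.3% (21.1 to 41.3%) in Col-0, against 53.3 and 29.1% of all peaks. The order of the genotypes thus turned round for H3K23Ac in both treatments, with intervals that overlapped in air.

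Between H3K14Ac and H3K23Ac, upstream H3K23Ac peaks were the less shared in each of the 4 conditions. In Col-0 with ethylene, 87 of 202 H3K14Ac peaks (43.1%, 36.4 to 49.96%, background 34.2%) overlapped no H3K23Ac peak, and 251 of 365 H3K23Ac peaks (68.8%, 63.8 to 73.3%, background 23.2%) overlapped no H3K14Ac peak. In Col-0 in air these were 3 of 14 H3K14Ac peaks (21.4%, background 9.17%) and 25 of 38 H3K23Ac peaks (65.8%, 49.9 to 78.8%, background 46.2%). In *ein2-5* with ethylene, 7 of 71 H3K14Ac peaks (9.86%, the same as the background of 9.86%) and 200 of 264 H3K23Ac peaks (75.8%, 70.2 to 80.5%, background 35.3%) were unshared. In *ein2-5* in air, 49 of 131 H3K14Ac peaks (37.4%, 29.6 to 45.9%, background 19.4%) and 253 of 336 H3K23Ac peaks (75.3%, 70.4 to 79.6%, background 39.5%) were. Upstream H3K23Ac without H3K14Ac thus ran between 65.8 and 75.8% in the deposited lists. This became 38.2% (28.1 to 49.4%, all peaks 23.5%) in Col-0 with ethylene, against 31.9% (22.1 to 43.6%, all peaks 34.7%) for H3K14Ac without H3K23Ac, both at the common depth, and these intervals overlapped. In *ein2-5* it was then 75.2% (68.9 to 80.7%, all peaks 38.7%) with ethylene and 81.3% (64.7 to 91.1%, all peaks 46.5%) in air. Comparisons between marks of 1 condition share the same control.

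H3K9Ac could be set against the other marks in Col-0. With ethylene, 435 of 680 upstream H3K9Ac peaks (64.0%, 60.3 to 67.5%, background 29.9%) overlapped neither an H3K14Ac nor an H3K23Ac peak, and in air 129 of 159 did not (81.1%, 74.3 to 86.4%, background 61.3%). Conversely, with ethylene 92 of 202 H3K14Ac peaks (45.5%, 38.8 to 52.4%, background 24.5%) and 136 of 365 H3K23Ac peaks (37.3%, 32.5 to 42.3%, background 10.8%) overlapped no H3K9Ac peak. In air these were 1 of 14 (7.14%, background 9.23%) and 10 of 38 (26.3%, 15.0 to 42.0%, background 19%). With ethylene all 3 intervals lay above their backgrounds, while in air only that of H3K9Ac did. With ethylene and at the common depth, H3K9Ac peaks without either other mark were 76.1% (71.0 to 80.5%, all peaks 47.7%). H3K14Ac peaks without H3K9Ac were then 12 of 69 (17.4%, 10.2 to 27.98%, all peaks 6.41%) and H3K23Ac peaks without it 10 of 76 (13.2%, 7.31 to 22.6%, all peaks 4.45%). These H3K14Ac and H3K23Ac percentages were lower than in the deposited lists, and their intervals still lay above the values over all peaks.

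The nearest gene downstream of an upstream peak carried a gene-body peak of the same mark in 21.1 to 74.0% of cases, depending on the list. In no list did the interval lie wholly below the value for all genes. The comparison was made with all 24059 protein-coding genes outside the centromeric windows. In Col-0 H3K9Ac, 74.0% (70.5 to 77.1%) of the nearest downstream genes had a gene-body peak in the same list with ethylene, against 58.8% of all genes, and 38.4% (31.2 to 46.1%) in air, against 37.8%. For Col-0 H3K14Ac the values were 39.6% (33.1 to 46.5%) with ethylene, against 45.6%, and 28.6% (11.7 to 54.6%) in air, against 11.2%. For Col-0 H3K23Ac they were 49.0% (43.9 to 54.2%) with ethylene, against 41.1%, and 21.1% (11.1 to 36.3%) in air, against 18.2%. The Col-0 intervals clear of the value for all genes lay above it. They were those of H3K9Ac and H3K23Ac with ethylene and that of H3K14Ac in air, which rests on 14 peaks.

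In *ein2-5*, 31.0% (21.4 to 42.5%) of downstream genes had an H3K14Ac gene-body peak with ethylene, against 28.3% of all genes, and 26.7% (19.9 to 34.9%) in air, against 30.7%. For H3K23Ac these were 43.6% (37.7 to 49.6%) with ethylene, against 37.0%, and 37.2% (32.2 to 42.5%) in air, against 38.7%. Of the 4 *ein2-5* lists, only H3K23Ac with ethylene had an interval that lay above the value for all genes.

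A peak within 2 kb upstream was found in at least 1 list for 1262 of 24059 genes (5.25%). By list this was 3.15% of genes for Col-0 H3K9Ac with ethylene and 0.844% in air, 0.998% and 0.0790% for Col-0 H3K14Ac, and 1.77% and 0.187% for Col-0 H3K23Ac. In *ein2-5* it was 0.374% with ethylene and 0.644% in air for H3K14Ac, and 1.35% and 1.61% for H3K23Ac. Genes of the ethylene pathway and light regulators of dark-grown seedlings were then looked up. Of 42 such genes outside the centromeric windows, 9 had an upstream peak (21.4%), as a description of a chosen list. They were 3 of 11 genes of the signalling cascade (*CTR1*, *ETP2*, *EBF2*), 3 of 7 downstream factors (*EDF1*, *EDF4*, *ARGOS*), 1 of the 4 genes the study used as EIN3 targets without ethylene regulation or as control (*BES1*), and 2 of 7 light regulators (*PIF3*, *PIF5*). None of the 7 receptor genes and receptor regulators and none of the 6 ethylene synthesis genes had one. *ETR2*, *PHYA*, *WRKY4* and *ACT7* had none either, and *NAC6* lies in a centromeric window, where the rule counts no peak.

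Nearly all of these were H3K9Ac peaks of the Col-0 ethylene list, and none came from an air list or from *ein2-5*. *EBF2* had a pair of regions. The nearer, chr5:8797883-8798082, had its summit 623 bp before the start and a −log10 P of 4.82 for H3K9Ac with ethylene. The farther was found for H3K9Ac (chr5:8798695-8799044, summit at 1474 bp, −log10 P 5.62) and H3K23Ac (chr5:8798665-8799041, summit at 1445 bp, −log10 P 4.35), both with ethylene. Of these, only the farther H3K9Ac peak was kept at the common depth. *ETP2*, an F-box gene whose product degrades EIN2, had an H3K14Ac peak with ethylene at 379 bp (−log10 P 4.45), which was not kept.

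The other 7 genes had 1 peak each, all H3K9Ac in Col-0 with ethylene. For *CTR1* the summit lay 1368 bp upstream (−log10 P 9.64), though it was closer to the start of the neighbouring gene *HD2C*, a histone deacetylase. *EDF4* (*RAV1*) had its summit at 591 bp (6.91), *EDF1* (*TEM1*) at 1237 bp (4.78) and *ARGOS*, which promotes organ growth, at 1176 bp (5.84). Among regulators of growth in the dark, *PIF5* had a summit at 823 bp (6.88) and *PIF3* at 447 bp (3.81), and *BES1*, a factor of brassinosteroid signalling, at 861 bp (3.69), with −log10 P in parentheses. The peaks of *CTR1*, *EDF4*, *ARGOS* and *PIF5* were kept at the common depth and those of *EDF1*, *BES1* and *PIF3* were not.

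The strongest upstream peaks were largely a small set of regions that recurred. The 2 peaks with the highest −log10 P in each of the 10 lists, 20 in all, fell in 10 regions, and 11 of the 20 summits lay in another annotated gene. The region upstream of *AT5G04885* was among them in 6 lists. Within Col-0 H3K9Ac with ethylene the highest value was 46.9, 158 bp upstream of *AT1G57850* in the transcribed pseudogene *AT1G57840*, and next came 45.3 at *AT2G18740*, in the non-coding RNA gene *AT2G18735*. In *ein2-5* in air, the top region of both marks lay upstream of *AT1G05136*, in the transcribed pseudogene *AT1G05135*, with 30.2 for H3K14Ac and for H3K23Ac. Next to it in both of these lists stood the region upstream of *FIS1B*, a gene for a mitochondrial fission protein, with 10.8 for H3K14Ac and 18.7 for H3K23Ac. In *ein2-5* with ethylene the second place in both lists went to the non-coding RNA gene *AT5G44569* upstream of *AT5G44570*, at 8.76 for H3K14Ac and 10.3 for H3K23Ac. The non-coding RNA gene *AT1G11175* upstream of *SCAMP2*, which encodes a secretory carrier membrane protein, led Col-0 H3K14Ac in air with 6.66.

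Regions with an upstream peak in all 10 lists numbered 8, and the 5 with the best lowest rank are described. Upstream of *AT5G04885*, summits stood 217 to 273 bp before the start in every list. The −log10 P was 27.5 with ethylene and 9.58 in air for Col-0 H3K9Ac, 17.3 and 6.19 for Col-0 H3K14Ac, and 15.5 and 8.83 for Col-0 H3K23Ac. In *ein2-5* it was 11.5 with ethylene and 6.25 in air for H3K14Ac, and 10.9 and 9.09 for H3K23Ac. Its rank among upstream peaks was never below the 84.0 percentile. The peak in *ein2-5* H3K14Ac in air was the only 1 of the 10 not kept at the common depth.

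The other 4 regions ranked lower in their weakest list. That upstream of *AT5G16500* lay in *MUG4*, a pseudogene in the annotation and a member of the MUSTANG family, which derives from transposases, and its −log10 P was 5.05 to 24.2 over the 10 lists. *AT1G13143*, with no other gene at the summit, had 4.22 to 26.0, and *AT3G61010*, with the transcribed pseudogene *AT3G61020*, had 4.35 to 19.9. The *AT1G11593* region held 2 peaks in 4 of the lists and 1 in the others, at 1185 to 1287 bp and 1865 to 1912 bp upstream, within *AT1G11592*. In each list the peaks at these regions stood at or above the 47.3 percentile of upstream peaks, except the farther *AT1G11593* peak of *ein2-5* H3K23Ac with ethylene (22.7).

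Some regions were picked by their pattern over treatments, genotypes or marks. Of 108 regions with upstream peaks of both H3K14Ac and H3K23Ac in Col-0 with ethylene, 19 overlapped no peak of these marks in Col-0 in air or in *ein2-5*. The 5 with the highest mean rank lay upstream of *AT5G14820*, *CRK29* (a cysteine-rich receptor-like kinase), *HAG2* (a histone acetyltransferase), *LOG5* (of the cytokinin-activating LONELY GUY family) and *PPR336* (a pentatricopeptide repeat protein). Another gene lay at a summit in 9 of the 19 (47.4%). At *AT5G14820* and *HAG2* it was a pseudogene (*AT5G14830* and *AT5G56747*). At *CRK29* it was the pseudogene *AT4G21420* with the RNA gene *AT4G03065*. Which gene the marks belonged to was not tested. The −log10 P of H3K14Ac and H3K23Ac was 8.80 and 6.22 at *AT5G14820*, and 7.38 and 7.18 at *CRK29*. *HAG2* had 10.1 and 5.03, *LOG5* 4.93 and 7.90, and *PPR336* 4.19 and 7.12, in the same order of marks. H3K9Ac peaks with ethylene covered 3 of these 5 regions, those at *CRK29* (15.4), *HAG2* (11.98) and *PPR336* (3.27), and the *HAG2* region also had an H3K9Ac peak in air (3.44). Only *AT5G14820* and *CRK29* kept both marks at the common depth. These regions were picked for their pattern, so it is no finding about them. The matching share over all peaks was not computed. Of all Col-0 ethylene peaks, 81.8% for H3K14Ac and 66.7% for H3K23Ac overlapped no air peak of the same mark.

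Just 1 region had H3K14Ac and H3K23Ac in *ein2-5* with both treatments and in Col-0 with neither. It lay 271 to 281 bp upstream of *AT4G19070*, and had −log10 P 5.35 with ethylene and 4.12 in air for H3K14Ac, and 4.90 and 6.00 for H3K23Ac. In Col-0 it had an H3K9Ac peak with ethylene (5.06). At the common depth both *ein2-5* ethylene peaks were kept, but neither *ein2-5* air peak was, nor the H3K9Ac peak. The pattern over both treatments was thus not kept. This region was also picked for its pattern, and the matching share over all peaks was not computed. Regions with H3K9Ac in both Col-0 lists and neither other mark in any list numbered 17. In 6 of them (35.3%) a summit lay in another gene, against 26.9% of all 1149 regions. The 17 were picked for their pattern too, and the matching share over all peaks was not computed. The top 3 were upstream of *AT1G57620* (25.0 with ethylene and 4.24 in air), *AT2G16750* (11.7 and 5.02), with the long non-coding RNA *AT2G06765* at the summit, and *AT2G40800* (13.4 and 3.83).

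**Figure D5:**
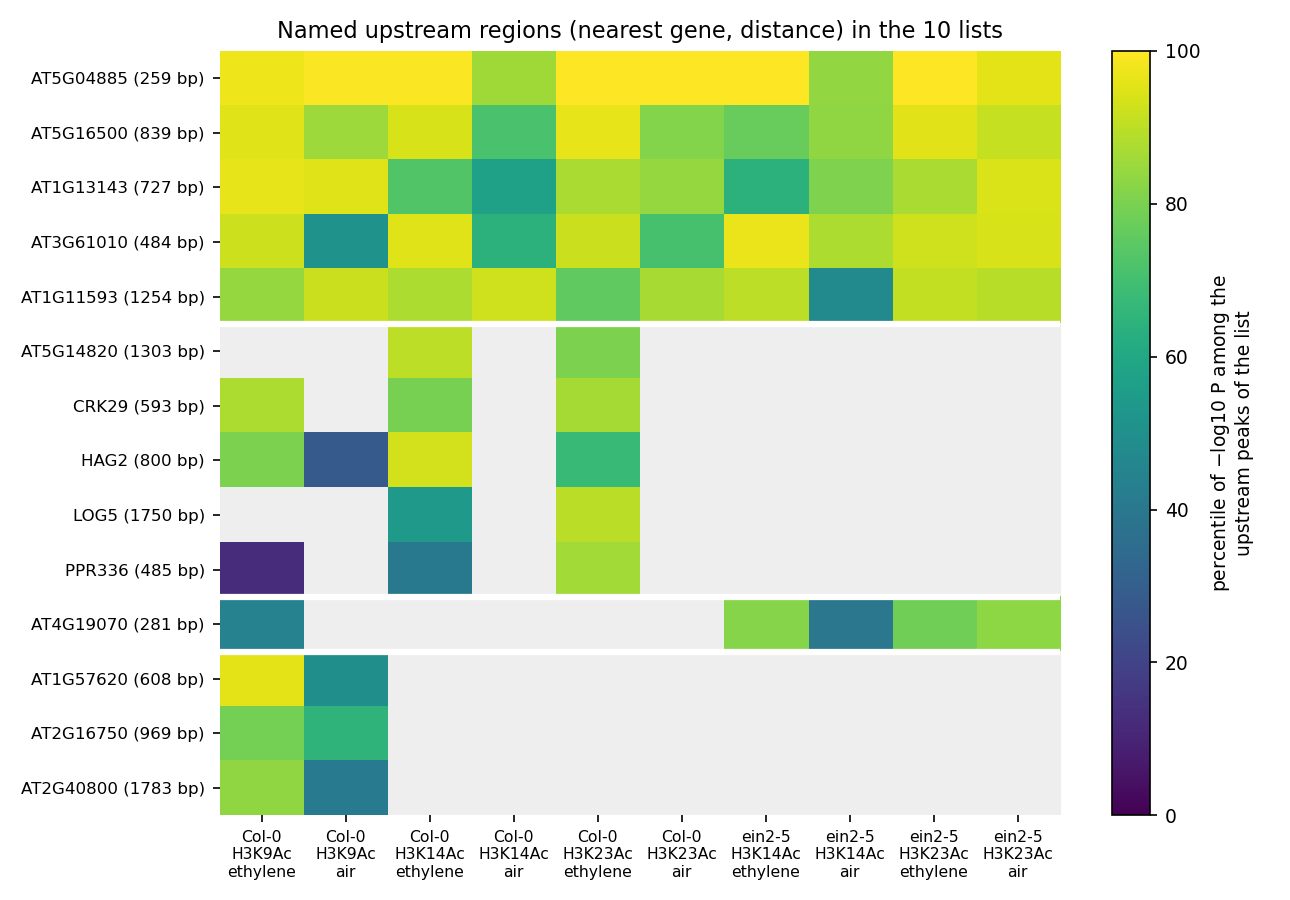
Within-list percentile of −log10 P among upstream peaks for each region described, by list, with grey where the list has no upstream peak there. From the top, the groups are 5 regions found in all 10 lists, 5 with H3K14Ac and H3K23Ac in Col-0 with ethylene alone, 1 of *ein2-5* and 3 of H3K9Ac, and *AT5G04885* stays at or above 84.0 in every list.

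The base composition of the upstream regions lay between that of upstream territory and gene bodies. Mean G+C was 34.4% in the windows of the 1149 regions, 30.2% in windows tiled over the whole upstream territory and 45.8% at gene-body summits. It was 40.6% for the 309 regions with another gene at a summit, 32.1% for the 840 without one, and 42.3% for the 100 regions found in at least 5 lists. The motifs were searched on both strands in the same windows, 100 bases on either side of a summit or a tile's centre, and their presence is a description only. The G-box CACGTG, bound by basic helix-loop-helix factors such as the PIFs, was in 1.74% (1.13 to 2.67%) of regions and 3.38% of tiles. GCCGCC, the GCC-box, was in 2.70% (1.91 to 3.80%) of regions and 0.946% of tiles. TGGGCC, the site II element, was in 1.39% (0.859 to 2.25%) and 4.85%, and AAACCCTA, the telo-box, in 4.18% (3.17 to 5.50%) and 1.91%. TATAAA was in 28.5% (26.0 to 31.2%) and 41.1%. ATGNANCT, the letters of the EIN3 binding site with N for any base, was in 11.7% (10.0 to 13.7%) of regions and 11.5% of tiles. Upstream regions thus held fewer G-boxes, site II elements and TATA letters than the tiles and more GCC-boxes and telo-boxes. Matches to the loose pattern ATGNANCT were about as common in regions as in tiles, and EIN3 binding was not tested. Base composition differed between the sets as well, and its part in these shares was not tested.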

How the data were processed

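Peaks came from ChIP-seq of H3K9Ac, H3K14Ac and H3K23Ac in *ein2-5* and Col-0 seedlings. Per the submitters' processing notes and methods, the authors mapped 51-bp reads to TAIR10 with Bowtie2 2.1.0, removed duplicates with SAMtools, pooled replicates and called peaks against IgG with MACS2 2.1.0.20150603 (fragment length 200 bp, effective genome size 130000000 bp, P threshold 0.01). The deposited pileup is a coverage signal at the summit, scaled by the authors to the smaller library, which was the control in every list. The deposited fold enrichment is a ratio to the local background computed by the authors. The deposited p-value column is the −log10 P from the authors' peak caller. The deposited q-value column was treated as a score, since the file headers disown it while it is filled. Fold enrichment and the q score were summarised over all lists, and −log10 P was printed list by list, with a common bound of 5. These values depend on control depth, and no difference in them between lists was tested. Control depth was taken from the headers, and for Col-0 air its match to the IgG library is uncertain. No per-sample column was left unassigned.

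Summits were placed on 27444 protein-coding genes of a RefSeq annotation of TAIR10, newer than the one the study used. The overlap and upstream rule were tested on simulated data with 0 mismatches over 1324 peaks. Regions were merged upstream peaks overlapping by at least 1 bp. Named were upstream peaks of listed genes, the 2 strongest of each list, and the top regions found in all lists, in Col-0 ethylene alone, in *ein2-5* alone or with H3K9Ac alone. Members and lists were chosen with earlier results of these data known. Alternatives were q under 0.05, a common control depth, an overlap of 50% of the peak, a window of 1 kb, and summits outside genes of every type. With 1 pooled list per condition, no P value across peaks was computed. Computation ran in Python 3.11.15 with matplotlib 3.10.9, scipy 1.17.1, pandas 2.3.3 and numpy 2.4.6.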

Additional observations from a re-analysis of the deposited data

Results flagged for a closer look

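The effect of ethylene on the number of upstream peaks went in opposite directions in the 2 genotypes, and the difference was not tested, because each condition has 1 list. For H3K14Ac the ratio of upstream peaks, ethylene over air, was 0.542 in *ein2-5* and 14.4 in Col-0. For H3K23Ac it was 0.786 in *ein2-5* and 9.61 in Col-0. All peaks went in the same opposite directions, with ratios of 0.847 and 5.09 for H3K14Ac and 0.893 and 2.58 for H3K23Ac in *ein2-5* and Col-0. The control depth ran the same way, with 4333059 tags with ethylene and 13683768 in air for *ein2-5*, and 10479732 with ethylene and 2438541 in air for Col-0. At a common control depth, to which deposited peaks were scaled and not called anew, the directions were alike. The ratios were then 7.13 in *ein2-5* and 4.93 in Col-0 for H3K14Ac, and 6.31 and 2.00 for H3K23Ac. The all-peaks ratios were then 2.88 in *ein2-5* and 2.30 in Col-0 for H3K14Ac, and 2.74 and 1.17 for H3K23Ac.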

How the results depend on the processing

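No paired analysis was possible because the authors pooled the replicate libraries into 1 list per condition. The upstream share of all peaks was 1.44% at the common control depth, 1.29% with a window of 1 kb and 1.29% with summits outside genes of every type. The main percentages of unshared upstream peaks that left their intervals were as follows. At the common depth, ethylene peaks without an air peak were 51.5% for H3K9Ac, 79.7% for H3K14Ac and 67.1% for H3K23Ac in Col-0, and 91.2% and 85.1% for H3K14Ac and H3K23Ac in *ein2-5*. *ein2-5* peaks without a Col-0 peak were 43.9% for H3K14Ac and 73.8% for H3K23Ac with ethylene and 53.1% for H3K23Ac in air, and Col-0 ethylene H3K14Ac peaks without H3K23Ac were 31.9%. With q under 0.05, ethylene peaks without an air peak were 80.2% for H3K9Ac and 95.8% for H3K14Ac in Col-0, *ein2-5* H3K14Ac air peaks without a Col-0 peak 94.8%, and Col-0 air H3K14Ac peaks without H3K23Ac 0 of 9 (0%). With an overlap of 50%, the values were 81.5% for H3K9Ac and 94.2% for H3K23Ac in Col-0 ethylene without air, and 94.0% for *ein2-5* H3K23Ac in air without Col-0. With a window of 1 kb, Col-0 H3K23Ac ethylene peaks without air were 86.5%. With summits outside genes of every type, ethylene peaks without air were 87.7%, 95.6% and 96.1% for H3K9Ac, H3K14Ac and H3K23Ac in Col-0 and 61.9% for *ein2-5* H3K23Ac. *ein2-5* peaks without Col-0 were then 95% for H3K14Ac and 97.4% for H3K23Ac in air and 56.1% for H3K23Ac with ethylene, and Col-0 ethylene H3K14Ac peaks without H3K23Ac were 57.1%. Of the percentages in the reverse direction and those with H3K9Ac against other marks, which were added after seeing the data, 13 of 19 left their intervals at the common depth and 13 with summits outside genes of every type, 5 with a window of 1 kb, 1 with q under 0.05 and 1 with an overlap of 50%. Without an ethylene peak, *ein2-5* air peaks became 37.5% for H3K14Ac and 12.5% for H3K23Ac at the common depth. Without an *ein2-5* peak, Col-0 peaks became 85.7% for H3K14Ac and 60.5% for H3K23Ac in air and 30.3% for H3K23Ac with ethylene, and Col-0 ethylene peaks without H3K9Ac 17.4% for H3K14Ac and 13.2% for H3K23Ac.

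Ratios of upstream peaks under these settings were added after seeing the data. At the common depth 5 turned round. They were 7.13 for H3K14Ac and 6.31 for H3K23Ac, ethylene over air in *ein2-5*, and, *ein2-5* over Col-0, 0.571 for H3K14Ac and 0.842 for H3K23Ac in air and 2.66 for H3K23Ac with ethylene. The share of summits in other genes at the common depth (58.0%) was added in the same way. Lists without replicates, unequal control depth and a q column that the headers disown limit all of these values, and the depth of each list sets the weakest peak it could hold.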
